A study of Mus musculus with 8 samples.

Results

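The response of male mouse liver to an adenovirus that carries Cux2 was measured 5 days after treatment, on 2 of the 8 two-colour arrays of the study. These are the 2 arrays whose labels give Adeno-Cux2 over Adeno-CMV at 5 days in males, and they lie on the first of the study's 2 slides. All mice were of the ICR scid strain and 8 weeks old. Each array compared the liver RNA of a pool of males given Adeno-Cux2 with that of a pool given Adeno-CMV, the control adenovirus without Cux2. Replicate 1 held pools of 6 and 6 mice and replicate 2 pools of 6 and 7, so that 12 treated and 13 control mice gave 2 independent ratios. The other 6 arrays compared untreated males with untreated females, females at day 5, and males at day 3, with 2 arrays each.

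Every mouse of the comparison, control or not, was an adenovirus-treated scid host, a strain that lacks mature T and B cells but keeps natural killer and myeloid cells. The labels give neither the virus dose nor the promoter that drove Cux2. RNA was extracted with Trizol, amplified as aminoallyl RNA and coupled to Alexa 555 (green) or Alexa 647 (red). The Cux2 pool was red on replicate 1 and green on replicate 2. Values are log2 ratios of Adeno-Cux2 over Adeno-CMV. The mean over the 2 arrays is given with its standard error (n = 2 arrays), which covers the spread between pools and not that between mice. Pools fix the number of independent values at 2 per comparison, and one standard error per gene was estimated from all 8 arrays. A gene was called when limma's test gave an adjusted p under 0.05 over all genes.

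Cux2 is a homeobox transcription factor of the Cut family whose liver expression is female-biased in mice. Many genes of rodent liver differ between males and females, in steroid and drug metabolism and in secreted proteins, and the pulse pattern of pituitary growth hormone maintains most of these differences. An adenoviral vector mainly infects hepatocytes after injection into the circulation, and the liver's Kupffer cells take up much of it. Infected liver is known for interferon, chemokine and phagocyte responses, to which an empty vector also gives rise.

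A total of 22220 genes were tested. Over the 8 arrays, the median signal of a spot was 343 to 442 in green and 430 to 512 in red, against local backgrounds of 289 to 315 and 327 to 342.5. Between 68.2% and 80.1% of spots were well above background, and 0 to 16 spots per array were saturated. On the male day 5 arrays the 2 log2 ratios of a gene correlated across genes at a Pearson r of 0.873. Genes are not independent replicates, so this value only describes the arrays. The median gap between the 2 arrays was 0.10, 94 genes differed by more than 1, and 12 by more than 2. The female transcript Xist was not above background in either channel on both arrays, and the Y-linked Ddx3y, Eif2s3y, Kdm5d and Uty were above it in both channels, as the male labels require. Their ratios lay between -0.30 and 0.10.

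More genes were higher than lower. In the pools labelled Adeno-Cux2, 3088 genes (13.9% of the genes tested) were called higher and 1100 (4.95%) lower, 18.8% in all. The median over all genes was 0.01. Among the genes called higher, 1528 changed by less than 1.5-fold, 894 by 1.5 to 2-fold, 604 by 2 to 4-fold and 62 by more than 4-fold, 10 of them by more than 8-fold. Among those called lower, 787 changed by less than 1.5-fold, 207 by 1.5 to 2-fold, 97 by 2 to 4-fold and 9 by more than 4-fold. At 2-fold or more, 666 genes were higher (3% of all genes) and 106 lower (0.477%). The 2 arrays had the same sign for 4182 of the 4188 called genes. With replicate 1 left out, 1020 genes were higher and 145 lower, and with replicate 2 left out 875 and 170, the lone array then being assumed to vary like those of the other comparisons. Of the called genes, 26.4% were also called between the untreated sexes, against 11.1% of all genes, and 3081 (73.6%) were not.

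**Figure D1:**
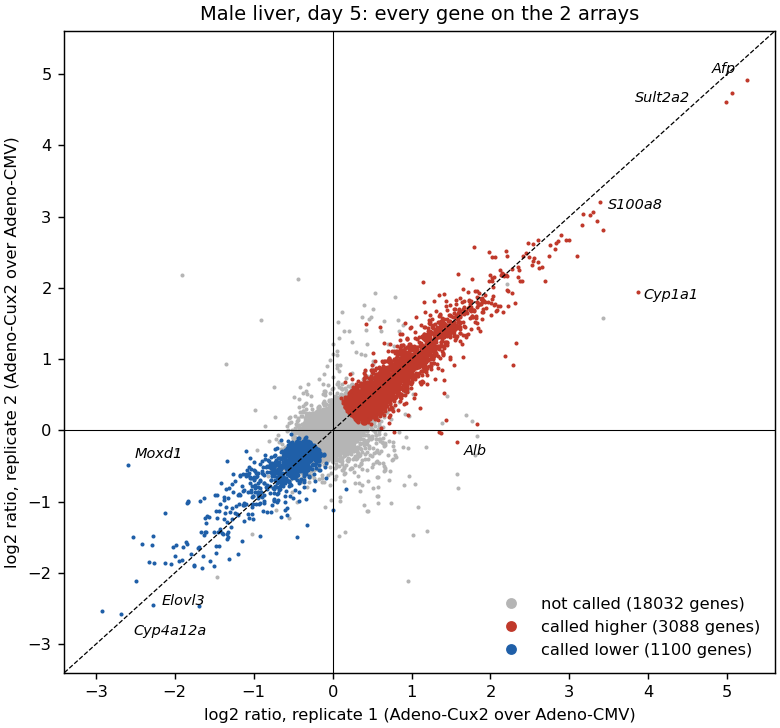
Log2 ratio of Adeno-Cux2 over Adeno-CMV in male liver at day 5 on replicate 1 (x axis) and replicate 2 (y axis). Each point is 1 of 22220 genes, coloured by whether it was called higher (3088), lower (1100) or not called. Most called genes lie near the dashed line of equal ratios, while Cyp1a1, Moxd1 and Alb lie off it.

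Cux2 itself was higher, by a size that depended on the processing. Its probe, at chr5:122121055-122121114 on mm8, gave 0.61 and 0.60 on the 2 arrays. Both were above 0 and close to each other. The mean was 0.60 ± 0.09, or 1.52-fold (adjusted p = 0.0043), and the scanner software's own log ratios gave 1.77. The call was lost with no background subtraction, at 0.17 (adjusted p = 0.169), and with the arrays only centred on their medians, at 0.56 (adjusted p = 0.0892). The further Cux2 probe, at chr5:122156086-122156145, read 0.28 and 0.34. Whether the probes read the Cux2 sequence that the virus carries was not tested, since the labels do not describe the insert. Cux1, the other Cut-family gene with this type of homeodomain, read -0.01 on a further probe. On its brightest probe Cux1 fell by 0.50 on the log2 scale (1.41-fold, limma, adjusted p = 0.0184), from -0.61 and -0.38 on the arrays. Its call was lost with replicate 1 or 2 left out (adjusted p = 0.297 and 0.176) and with the mean over its probes (adjusted p = 0.0555).

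The largest rise was that of Afp, the fetal serum protein, with 5.25 and 4.91 on the arrays and 5.08 ± 0.26 in the mean (33.8-fold, adjusted p = 9.43e-05). AI315523 gave 5.06 and 4.74, and Sult2a2, a sulphotransferase of steroids and bile acids that female livers express, gave 4.98 and 4.61. These 3 genes stood apart from the rest, the next being S100a8 at 3.30. Igf2, the fetal growth factor, reached 3.00 and 2.67 (2.83 ± 0.15, adjusted p = 0.000111), and its further probe read 4.91. S100g, a calcium-binding protein, reached 3.1 and 2.45 (2.77 ± 0.26). Plat, the tissue plasminogen activator, reached 2.96 and 2.67 (2.81 ± 0.27), although 1 of its further probes read 0.10 and the other 2.19. Gpnmb, a glycoprotein of lipid-laden macrophages, reached 3.17 and 3.03, while its further probe read 0.23. The further probe of Sult2a2 read 1.44 and 1.33. So for Sult2a2, Plat and Gpnmb the probes of the gene disagreed in size, and the rise is that of the brighter probe. Among genes named below, the lowest further probe read 0.88 for Ifi44, 0.37 for H2-DMb2, 1.11 for Abcc4 and 0.96 for Elovl7. It read 0.71 for Phgdh, 0.90 for Tmsb10 and 0.25 for Tcf7, and the least negative one for Egfr read -0.23. For Myl1, Csn3 and Dct, named in the contrasts, the lowest probe read 0.43, 0.58 and -0.23 in males at day 5. The probes of Rnf170 ran from -0.10 to 0.12.

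The largest falls were smaller than the largest rises. The clone C730002L08Rik fell most, to -2.93 and -2.53 (mean -2.73 ± 0.10, adjusted p = 7.32e-05), and Cyp4a12a, a male-specific fatty acid hydroxylase, followed with -2.68 and -2.57 (-2.62 ± 0.20, adjusted p = 0.000282). Cfap53, a protein of cilia, fell to -2.0 and -1.77 (-1.88 ± 0.15, 3.69-fold, adjusted p = 0.000375). Adgrv1, an adhesion receptor, fell to -2.27 and -1.48 (-1.88 ± 0.15). Raet1a, a ligand of an activating natural killer receptor, had -2.53 on replicate 1 and -1.49 on replicate 2, so its arrays had 1 direction but unequal sizes. Vnn1, the pantetheinase of hepatocytes, was at -2.05 and -1.88 (-1.96 ± 0.20, adjusted p = 0.000948). Of the 15 largest falls, 11 were called higher in untreated males than in females and 1 lower. Of the 15 largest rises, 8 were called lower in untreated males and 0 higher by limma. Over all genes, 4.93% were called higher in untreated males and 6.14% lower. The calls of AI315523 and Sult2a2 were lost with either array left out (adjusted p = 0.129 and 0.177, 0.157 and 0.257).

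**Figure D2:**
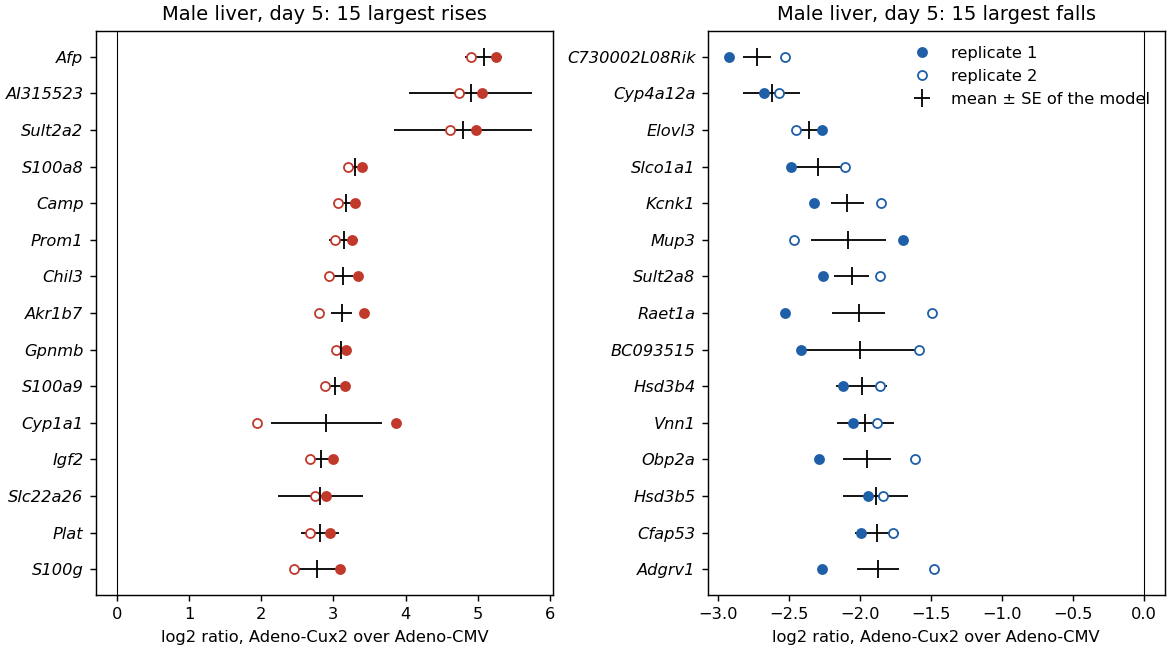
The 15 largest rises (left, red) and the 15 largest falls (right, blue) among called genes, as log2 ratio of Adeno-Cux2 over Adeno-CMV. Filled circles are replicate 1, open circles replicate 2, and crosses the mean with the standard error of the model. The standard errors of AI315523 and Sult2a2, 0.85 and 0.96, exceed the distance between their 2 points, since that error was estimated from all 8 arrays.

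The genes that differ between untreated males and females mostly changed towards the other sex's level in treated males. At 2-fold or more, 160 genes were called higher in untreated males than in females (0.72% of all genes) and 162 lower (0.729%). Of the 160 male-biased genes, 125 (78.1%) fell after Adeno-Cux2 and 4 (2.5%) rose, with a median of -0.72. Of the 162 female-biased genes, 91 (56.2%) rose and 9 (5.56%) fell, with a median of 0.60. Over all genes the shares were 13.9% and 4.95% and the median 0.01. The untreated arrays lie on the same slide but carry RNA of other mice. The female-biased set also held the neutrophil gene S100a9 and the p53 targets Cdkn1a and Trp53inp1. These were at -1.04, -1.14 and -1.01 in untreated males against females. What part of the 91 rises goes with the immune and stress rises given below was not tested. With replicate 1 or 2 left out, the 125 became 38 to 67 and the 91 became 43 to 47.

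The bins of larger sex difference mostly had larger medians. Male-biased genes of 2 to 4-fold (n = 118) had a median of -0.62, with 90 lower and 4 higher. Those of 4 to 8-fold (n = 31) had a median of -1.31, with 27 lower and 0 higher by limma's test (28 and 0 at an unadjusted p under 0.05), and those of 8-fold or more (n = 11) a median of -1.29, with 8 lower and 0 higher (8 and 0 unadjusted). Female-biased genes showed the mirror image: the median was 0.53 at 2 to 4-fold (n = 120, 66 higher and 8 lower), 1.00 at 4 to 8-fold (n = 24, 15 higher and 1 lower) and 2.02 at 8-fold or more (n = 18, 10 higher and 0 lower, 12 and 0 unadjusted). These are descriptions of the bins, with no test between them. Sult2a2 was -5.40 ± 0.96 in untreated males against females and 4.79 ± 0.96 after Adeno-Cux2, and Elovl3, the elongase of very long-chain fatty acids, was 3.27 ± 0.09 and -2.36 ± 0.09. The values within each pair come from different mice, and whether treated males reached the female level was not tested.

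**Figure D3:**
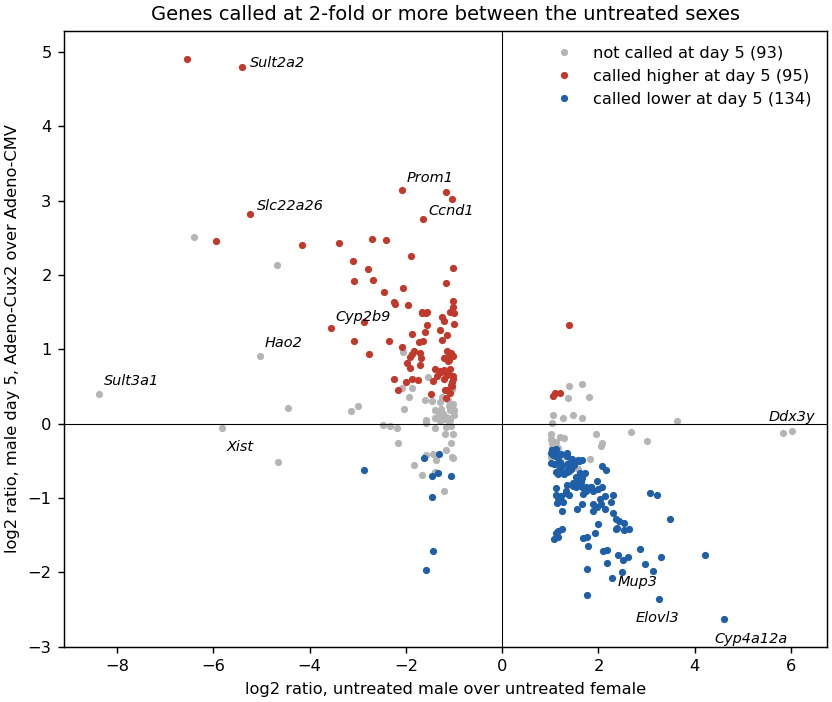
Each of the 322 genes called at 2-fold or more between the untreated sexes, by its log2 ratio of untreated males over females (x axis) and its log2 ratio of Adeno-Cux2 over Adeno-CMV in males at day 5 (y axis). Red points were called higher (95), blue points lower (134) and grey points neither (93). Genes on the left mostly lie above 0 and genes on the right below it, with Xist and Ddx3y near 0.

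Among genes that untreated females express more, Slc22a26, an organic anion transporter, gave 2.90 and 2.74 (2.82 ± 0.59, 7.05-fold, adjusted p = 0.0183). BC014805 gave 2.54 and 2.37 (2.46 ± 0.51, adjusted p = 0.0184). Ntrk2, a neurotrophin receptor, gave 2.60 and 2.37 (2.48 ± 0.25, adjusted p = 0.000897), and Nipal1, a magnesium transporter, gave 2.45 and 2.49 (2.47 ± 0.08, adjusted p = 7.32e-05). All 4 had nearly the same ratio on both arrays. The calls of Slc22a26 and BC014805 were lost with replicate 1 or 2 left out (adjusted p = 0.152 and 0.302, 0.163 and 0.293), with no background subtraction and with the software's ratios. Cyp2a4, a testosterone hydroxylase of female liver, rose by 1.36 ± 0.16 (adjusted p = 0.00157), but not without replicate 2 (adjusted p = 0.0653). Acot3, a peroxisomal thioesterase, rose by 1.91 ± 0.16 (adjusted p = 0.000471), and Trim24, a chromatin regulator, by 1.21 ± 0.08 (adjusted p = 0.000199).

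Some of the most female-specific genes were high on both arrays yet missed the test, and the following were chosen after their values were seen. A1bg, a secreted protein, gave 2.21 and 2.05 with a standard error of 0.85 (adjusted p = 0.145). Fitted on the first slide alone, A1bg was at 2.13 ± 0.08 (limma, adjusted p = 4.62e-05). The untreated arrays enter that error too, while those of the other slide do not. In the fit over all arrays, A1bg had adjusted p = 0.392 and 0.711 with replicate 1 or 2 left out. Hao2, a hydroxyacid oxidase, gave 1.01 and 0.80 and was not called either, but the first slide alone gave 0.90 ± 0.08 (adjusted p = 0.000524). Sult3a1, another sulphotransferase, was higher on replicate 1 and lower on replicate 2, at 1.59 and -0.81 (adjusted p = 0.547 on the first slide alone). Cyp2b9, a female-specific P450, rose by 1.28 ± 0.21 (adjusted p = 0.00693, but 0.117 and 0.151 with replicate 1 or 2 left out). So the female-specific genes were not raised to one common extent.

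The textbook male-biased genes, a list written with earlier results of these data known, mostly fell. They may share members with the genes male-biased on the untreated arrays, so the 2 sets are not separate evidence. Of 48 such genes of the liver measured, 30 fell and 3 rose, with a median of -0.91 (17 and 20 falls called with replicate 1 or 2 left out). Slco1a1, the organic anion transporter of male liver, fell to -2.49 and -2.11 (-2.30 ± 0.16, adjusted p = 0.00021). Hsd3b5, a steroid dehydrogenase, fell to -1.95 and -1.84 (-1.89 ± 0.23, adjusted p = 0.00187), a call lost with replicate 1 or 2 left out (adjusted p = 0.0641 and 0.0552). C6, a complement component, fell to -1.44 and -1.13 (-1.29 ± 0.15, adjusted p = 0.00176; adjusted p = 0.054 without replicate 1). The major urinary proteins and the related lipocalin Obp2a, pheromone carriers that male liver secretes, all fell: 6 of 6 measured, with a median of -1.78, although 1 was called with either array left out. Mup1 gave -1.66 and -1.93 (-1.79 ± 0.29), Mup5 -1.90 and -1.63 (-1.76 ± 0.25) and Obp2a -2.29 and -1.61 (-1.95 ± 0.17). Mup genes are near-identical copies, so their probes may not tell them apart.

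Of 47 textbook female-biased genes, 25 rose and 4 fell, with a median of 0.74, and 14 and 13 of the rises were called with replicate 1 or 2 left out. The 4 that fell were Cyp17a1, the steroid lyase (-0.70), Cyp2c38 (-0.62) and Cyp2c39 (-0.46), both P450s, and Adh4, an alcohol dehydrogenase (-0.47). Cyp2c38 was at -2.87 in untreated males against females, and it moved further down (adjusted p = 0.00368; adjusted p = 0.102 without replicate 1). The other 3 calls were lost with at least 1 array left out (adjusted p from 0.056 to 0.435). So the listed female genes did not all share 1 direction, in a list also written with earlier results of these data known.

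Interferon-stimulated genes rose almost as a whole. Of 39 measured, 35 rose and 0 fell by limma's test, with a median of 0.93, and 15 and 14 were called with replicate 1 or 2 left out. Ifi44 gave 1.96 and 1.80 (1.88 ± 0.07, 3.69-fold, adjusted p = 7.32e-05). Ifi27l2a, a small membrane protein, gave 1.91 and 1.83 (1.87 ± 0.07, adjusted p = 7.32e-05), and Oas2, which makes the oligoadenylate signal of antiviral defence, gave 1.61 and 1.67 (1.64 ± 0.07, adjusted p = 7.67e-05), although a further probe of Oas2 read 0.13. The range over the list was -0.07 to 1.88. In 16 of the 23 lists in which 0 genes fell, the count at an unadjusted p under 0.05 was 0 as well. It was 1 each for class I presentation, the cytoskeleton, fetal liver, cholesterol, B and plasma cells and muscle, and 4 for heat shock genes. Irf7, which drives interferon genes, rose by 1.19 ± 0.10 (adjusted p = 0.000357). The control pools had also received an adenovirus, so the ratios give what Adeno-Cux2 livers had beyond those of Adeno-CMV. In whole liver, more cells of a type and more RNA per cell cannot be told apart, here and in the cell marker lists that follow.

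The promoters of interferon-stimulated genes are shown because a known element, GAAA followed 2 bases later by a second GAAA (searched on both strands), lay in many of them. In RefSeq's windows on GRCm38.p6, from 250 bases before to 50 bases after a gene's start, 3.23% of 13667 genes with a window held it. The share was 63.0% among the interferon list (17 of 27 with a window), 4.8% among genes called higher, 3.12% among those called lower, 8.14% among those 2-fold higher and 7.94% among those 2-fold lower (5 of 63). The last 2 shares were alike. Among the female-biased genes of the untreated arrays at 2-fold or more the share was 8.49% (9 of 106), and among the male-biased ones 1.11% (1 of 90). Below are the 250 bases before the start of Ifit1 (chr19, plus strand, chr19:34640639-34640888), Isg15 (chr4, minus strand, chr4:156200819-156201068) and Gbp2 (chr3, plus strand, chr3:142620413-142620662), picked after their matches were seen. Capitals mark the element or its reverse complement, which overlap one another in Isg15.
Ifit1: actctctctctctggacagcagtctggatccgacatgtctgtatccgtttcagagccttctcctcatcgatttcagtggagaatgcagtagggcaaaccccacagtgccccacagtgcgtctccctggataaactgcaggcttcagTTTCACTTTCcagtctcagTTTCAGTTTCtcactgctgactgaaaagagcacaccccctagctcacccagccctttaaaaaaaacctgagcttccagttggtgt
Isg15: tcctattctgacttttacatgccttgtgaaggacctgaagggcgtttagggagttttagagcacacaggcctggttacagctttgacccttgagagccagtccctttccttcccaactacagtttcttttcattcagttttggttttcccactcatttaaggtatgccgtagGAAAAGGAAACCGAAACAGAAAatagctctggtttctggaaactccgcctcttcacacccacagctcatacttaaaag
Gbp2: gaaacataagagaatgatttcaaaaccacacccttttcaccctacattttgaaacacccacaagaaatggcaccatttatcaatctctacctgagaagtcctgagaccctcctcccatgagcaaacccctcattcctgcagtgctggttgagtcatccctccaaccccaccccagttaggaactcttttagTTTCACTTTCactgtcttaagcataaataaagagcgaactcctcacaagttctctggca
Ifit1, which binds foreign RNA, gave 1.19 and 1.34 on the arrays (1.27 ± 0.15, adjusted p = 0.00201). Isg15, a ubiquitin-like protein, gave 1.11 and 1.06 (1.08 ± 0.08, adjusted p = 0.000249), and Gbp2, a guanylate-binding protein, gave 1.42 and 1.24 (1.33 ± 0.09, adjusted p = 0.000164). Without replicate 1 or 2 the call of Ifit1 was lost (adjusted p = 0.0582 and 0.0691). A match describes the letters only.

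ATCGAT, a core sequence that Cut homeodomain proteins are known to bind, was much rarer. It lay in 0.871% of the windows of all genes, 0.594% of those called higher and 1.42% of those called lower, both strands counted. No share stood far from the background, and the counts behind them were 119, 13 and 10. One of the genes with a match was Moxd1, a monooxygenase-like protein, whose 250 bases before the start (chr10:24223267-24223516, plus strand) hold it once, in capitals. The Ifit1 sequence above also holds it once, unmarked there.
Moxd1: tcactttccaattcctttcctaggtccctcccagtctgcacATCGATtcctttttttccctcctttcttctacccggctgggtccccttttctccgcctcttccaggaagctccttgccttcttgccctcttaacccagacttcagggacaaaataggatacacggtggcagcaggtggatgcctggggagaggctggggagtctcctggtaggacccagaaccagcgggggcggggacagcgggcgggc
Moxd1 read -2.59 on replicate 1 and -0.49 on replicate 2, lower on both but far from equally so. The mean was -1.54 ± 0.31 (adjusted p = 0.0157), and the call was lost without replicate 1 (adjusted p = 0.166).

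Receptors and signalling genes of innate immunity rose together. Of 40 genes of pattern receptors and NF-kB signalling, 27 rose and 0 fell by limma's test, with a median of 0.48 (15 and 12 called with replicate 1 or 2 left out). Clec7a, the beta-glucan receptor dectin-1, gave 2.48 and 2.64 (2.56 ± 0.08, 5.89-fold, adjusted p = 7.32e-05). Cd14, the endotoxin co-receptor, gave 1.79 and 1.67 (1.73 ± 0.14, adjusted p = 0.000372). Tlr1 rose by 1.53 ± 0.07 and Fcer1g, the signalling chain of Fc receptors, by 1.51 ± 0.07. Of 37 chemokines and receptors, 24 rose and 2 fell, with a median of 0.73 (14 and 8 called higher with replicate 1 or 2 left out). Ccl6, a monocyte attractant, led with 2.13 and 2.18 (2.15 ± 0.08, adjusted p = 7.32e-05), and Cxcl14 followed with 2.09 and 1.75 (1.92 ± 0.11, adjusted p = 0.000116). Ccl2 and Cxcl10, which attract monocytes and lymphocytes, were higher on replicate 2 than on replicate 1, at 1.61 and 1.86 and 1.35 and 1.90. The 2 that fell were Ccl25 (-0.44) and Ccl27a (-0.30). The calls of Ccl2, Cxcl10, Ccl25 and Ccl27a were lost with at least 1 array left out (adjusted p from 0.0514 to 0.298).

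Immediate early genes, which cells switch on within minutes of a stimulus, were also high. Of 30 measured, 22 rose and 1 fell, with a median of 0.90 (9 and 6 rises called with replicate 1 or 2 left out). Egr1, a zinc finger factor, gave 2.20 and 2.52 with a wide standard error (2.36 ± 0.40, adjusted p = 0.00816). Egr2 gave 1.65 and 1.98 (1.82 ± 0.11, adjusted p = 0.000129), and Gadd45g, a growth arrest gene, gave 1.15 and 1.80 (1.48 ± 0.14, adjusted p = 0.000667). Fos rose by 1.67 ± 0.39 (adjusted p = 0.0278) and Dusp1, a phosphatase that limits such signals, fell (-0.41 ± 0.11, adjusted p = 0.0426). The calls of Egr1, Fos and Dusp1 were lost with either array left out (adjusted p from 0.12 to 0.368).

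Markers of phagocytes had the highest medians of the cell marker lists measured. Every one of the 25 genes of recruited macrophages and monocytes rose, with a median of 1.52, and 24 and 22 were called with replicate 1 or 2 left out. Chil3, a secreted chitinase-like protein, gave 3.35 and 2.93 (3.14 ± 0.13, 8.81-fold, adjusted p = 7.67e-05), and Lgals3, a galectin of macrophages, gave 2.20 and 2.44 (2.32 ± 0.10, adjusted p = 8.36e-05). Cd68 rose by 1.35 ± 0.06 and Adgre1, the F4/80 antigen, by 1.49 ± 0.10. Of 19 neutrophil genes, 16 rose and 0 fell by limma's test, with a median of 1.57 (13 and 14 called with replicate 1 or 2 left out). S100a8 and S100a9, subunits of calprotectin, gave 3.39 and 3.20 and 3.16 and 2.88, Camp, the cathelicidin, gave 3.30 and 3.06, and Ltf, lactoferrin, gave 2.55 and 2.42 (2.49 ± 0.13, adjusted p = 0.000103). All 4 were high on both arrays and somewhat higher on replicate 1.

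Markers of the resident Kupffer cells were higher too. Of 16, 10 rose and 1 fell, with a median of 0.79 (5 called higher with either array left out). Spic, the factor of iron-handling macrophages, gave 1.47 and 1.62 (1.55 ± 0.06, adjusted p = 7.67e-05), and Cd5l, a secreted scavenger protein, gave 1.57 and 1.44 (1.51 ± 0.10, adjusted p = 0.000159). The defining markers Clec4f and Timd4 gave 1.14 and 0.84 and 1.16 and 1.1 (adjusted p = 0.00256 and adjusted p = 0.00236), calls that were lost with replicate 1 or 2 left out (adjusted p from 0.0677 to 0.0773). The 1 that fell was C6, which hepatocytes also make. The C1q genes, whose products start the classical complement pathway and come from macrophages, rose alike, C1qa by 1.07 ± 0.07, C1qb by 1.25 ± 0.07 and C1qc by 1.11 ± 0.08.

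Class II antigen presentation had a higher median than class I. Of 14 class II genes, 13 rose and 0 fell by limma's test, with a median of 1.14 (12 and 10 called with replicate 1 or 2 left out). H2-Aa, a class II chain, gave 1.78 and 1.68 (1.73 ± 0.09, 3.32-fold, adjusted p = 9.43e-05). Cd74, the invariant chain, gave 1.74 and 1.57 (1.66 ± 0.12, adjusted p = 0.000227), and Ctss, the protease that cleaves it, gave 2.16 and 2.20 (2.18 ± 0.16, adjusted p = 0.000226). H2-DMb2, which helps load peptides, rose by 1.46 ± 0.09. Of 23 class I genes, 14 rose and 0 fell by limma's test, with a median of 0.38, yet only 1 and 0 were called with replicate 1 or 2 left out. H2-M3, which presents formylated peptides, was highest at 1.04 and 1.13 (1.09 ± 0.21, adjusted p = 0.0135; adjusted p = 0.225 and 0.165 without replicate 1 or 2). The difference between the 2 lists was not tested.

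Most natural killer genes rose, and some T and B cell genes. Of 23 natural killer genes, 19 rose and 0 fell by limma's test, with a median of 0.80 (12 and 11 called with replicate 1 or 2 left out). Gzma, a granule protease, gave 1.55 and 1.71 (1.63 ± 0.14, adjusted p = 0.000424). The Ly49 receptors, which read class I molecules, were high on both arrays: Klra9 gave 1.39 and 1.46 (adjusted p = 0.000264) and Klra7 1.26 and 1.56 (adjusted p = 0.0001), although such family members may share probes. Ncr1, the defining receptor, gave 0.84 and 0.99 (0.91 ± 0.07, adjusted p = 0.000368). Cd3e gave -0.05 and -0.18, Cd3g 0.14 and 0.19, Cd8a 0.18 and 0.09 and Cd79a -0.08 and 0.00, none of them called (limma, adjusted p from 0.198 to 0.805). Of 16 T cell genes, 4 rose (Tcf7, Zap70, Lck and Cd3d, the first 3 also used by natural killer cells), and of 10 B and plasma cell genes 3 rose, the B cell genes Cd22 (0.38) and Cd79b (0.27) and, highest, the complement receptor Cr2 at 1.12 and 1.01, although a further probe of Cr2 read -0.03. With replicate 1 or 2 left out, 2 and 1 of the T cell genes and 1 and 1 of the B cell genes were called.

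Of 14 dendritic cell genes, 8 rose, with a median of 0.40 (4 called with either array left out). Cd83, a marker of mature dendritic cells, gave 1.35 and 1.17 (1.26 ± 0.06, adjusted p = 9.2e-05). Clec9a, a receptor for dead cells on cross-presenting dendritic cells, rose by 1.04 ± 0.10, Irf8, which these cells need, by 1.02 ± 0.07, and Ly6d by 2.60 ± 0.25. Among those not called were Ccr7 (0.01, not above background on either array), Xcr1 (-0.05), Siglech (0.13) and Zbtb46 (0.26). Over the 7 immune marker lists together, 85 of 122 genes rose and 1 fell, against 13.9% and 4.95% of all genes. What part of the changes elsewhere goes with immune cell content was not tested.

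Lysosomal genes, abundant in phagocytes, rose in 18 of 35 cases and fell in 1, with a median of 0.36 (12 and 8 called higher with replicate 1 or 2 left out). Cd63, a lysosomal membrane protein, gave 1.78 and 1.59 (1.68 ± 0.09, adjusted p = 0.000115), and Lgmn, an asparaginyl protease, gave 1.15 and 1.35 (1.25 ± 0.10, adjusted p = 0.00036). Ctse, an aspartic protease, went the other way, at -1.55 and -1.83 (-1.69 ± 0.14, 3.23-fold, adjusted p = 0.000379). Macrophage markers moved with this list, as given above, and their part in it was not tested.

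Matrix genes and the proteases that cut matrix rose. Of 25 stellate cell and matrix genes, 20 rose and 0 fell by limma's test, with a median of 0.77 (8 and 5 called with replicate 1 or 2 left out), and 24 were above 0 on both arrays. Col1a1, a chain of type I collagen, gave 1.94 and 1.80 (1.87 ± 0.19, adjusted p = 0.000993), and Fbn1, fibrillin, gave 1.38 and 1.24 (1.31 ± 0.13, adjusted p = 0.000843). Lum, a proteoglycan, gave 1.78 and 1.70 (1.74 ± 0.24; adjusted p = 0.071 and 0.0977 without replicate 1 or 2). Of 36 matrix proteases and inhibitors, 27 rose and 0 fell by limma's test, with a median of 0.55 (10 and 7 with replicate 1 or 2 left out). The macrophage elastase Mmp12 gave 1.59 and 2.19 (1.89 ± 0.17, adjusted p = 0.000577), the collagenase Mmp13 1.17 and 1.66 (1.41 ± 0.12, adjusted p = 0.000445) and the neutrophil collagenase Mmp8 1.21 and 1.33 (1.27 ± 0.09, adjusted p = 0.000202). Mmp12 and Mmp13 were higher on replicate 2.

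Genes of the cytoskeleton rose in 20 of 35 cases, with a median of 0.46 (10 and 8 called with replicate 1 or 2 left out). Krt20, a keratin, gave 2.01 and 1.79 (1.90 ± 0.07, adjusted p = 7.52e-05), and the actin-binding thymosins Tmsb10 and Tmsb4x gave 1.83 and 1.80 and 1.71 and 1.35. Of 25 annexins and S100 proteins, 11 rose and 2 fell, with a median of 0.33, and Anxa3 gave 2.17 and 2.16 (2.17 ± 0.19, adjusted p = 0.000535). The falls were those of S100a1 (-0.55) and S100a13 (-0.44), both lost with replicate 1 or 2 left out (adjusted p from 0.0621 to 0.19). Of 23 endothelial genes 10 rose, with a median of 0.21 (2 and 1 called with replicate 1 or 2 left out), led by the adhesion molecule Vcam1 at 1.63 and 1.65 (1.64 ± 0.15, adjusted p = 0.000562), although a further probe of Vcam1 read -0.06.

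Genes of the fetal liver rose in 15 of 21 cases, with a median of 0.96 (10 and 11 called with replicate 1 or 2 left out). Beside Afp and Igf2, Scd2, the fetal stearoyl desaturase, gave 2.54 and 2.61 (2.57 ± 0.12, adjusted p = 8.36e-05), and Cd24a, a surface protein of progenitors, gave 2.61 and 2.27 (2.44 ± 0.13, adjusted p = 0.000104). Of 18 cholangiocyte and progenitor genes, 7 rose and 0 fell by limma's test, with a median of 0.32 (4 and 5 called with replicate 1 or 2 left out). Prom1, a progenitor antigen, gave 3.26 and 3.03, and Cldn7, a claudin of bile ducts, gave 1.18 and 0.89 (1.04 ± 0.08, adjusted p = 0.000239). Spp1, osteopontin, gave 1.29 and 1.41 (adjusted p = 0.00207, but 0.0793 without replicate 2).

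Growth and division genes were mixed. Ccnd1, the cyclin of cell cycle entry, gave 2.86 and 2.66 (2.76 ± 0.10, adjusted p = 7.32e-05), and Cdkn2b, a kinase inhibitor, gave 1.35 and 1.6 (adjusted p = 0.00473, but 0.142 without replicate 2). Of 42 genes of S and M phase, 15 rose and 2 fell, with a median of 0.25 (1 and 4 called higher with replicate 1 or 2 left out). Kif23, a kinesin of cell division, was highest at 0.94 and 0.78 (0.86 ± 0.07, adjusted p = 0.000326), while Ccne1 and Ccne2, the cyclins of S phase entry, fell to -0.30 and -0.43, calls lost with replicate 1 or 2 left out (adjusted p from 0.0968 to 0.403). Egfr, the epidermal growth factor receptor, fell to -1.38 and -1.24 (-1.31 ± 0.09, 2.48-fold, adjusted p = 0.000202). Among IGF binding proteins, Igfbp2 gave 1.64 and 1.21 (1.43 ± 0.13, adjusted p = 0.000528) and Igfbp1 2.02 and 2.13 (2.08 ± 0.44, adjusted p = 0.0186, lost with replicate 1 or 2 left out at 0.181 and 0.282). Of 21 genes of the growth hormone and IGF axis, 6 rose and 1, Egfr, fell, with a median of -0.06.

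Among stress pathways, p53 targets rose in 16 of 26 cases and fell in 1, with a median of 0.41, but 2 and 1 were called with replicate 1 or 2 left out. Pmaip1, the pro-apoptotic Noxa, gave 2.21 and 2.16 (2.18 ± 0.13, adjusted p = 0.000122). NRF2 targets rose in 11 of 29 cases and fell in 3, with a median of 0.33 (5 and 4 called higher with replicate 1 or 2 left out). Abcc4, an efflux pump, gave 2.35 and 2.30 (2.32 ± 0.13, adjusted p = 0.000115), Hmox1, the heme oxygenase, 1.12 and 1.07 (1.1 ± 0.07, adjusted p = 0.000167) and G6pdx, which makes NADPH, 1.21 and 1.1 (1.15 ± 0.08, adjusted p = 0.000192). The stress list of ATF4 and the unfolded protein response was split: 8 of 27 rose and 4 fell, with a median of 0.03. The serine and asparagine enzymes Phgdh and Asns gave 1.76 and 1.81 and 2.03 and 2.01, while Creld2, a chaperone-like protein of the endoplasmic reticulum, gave -0.63 and -0.67 (-0.65 ± 0.07, adjusted p = 0.00121, but 0.0558 without replicate 2). Of 19 heat shock genes 0 were called in either direction by limma (1 higher and 4 lower at an unadjusted p under 0.05), as were 0 of 61 ribosomal (4 and 0) and 0 of 31 proteasome genes (1 and 0).

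Cytochromes P450 of families 1 to 3 were split, with 10 of 38 higher and 13 lower and a median of -0.18 (2 and 3 called higher, 2 and 5 lower, with replicate 1 or 2 left out). Cyp2c55, an inducible P450, gave 2.36 and 2.25 (2.31 ± 0.13, 4.95-fold, adjusted p = 0.000119). Cyp1a1, which oxidises planar hydrocarbons, read 3.86 and 1.94, nearly 2 log2 units apart, and its call (adjusted p = 0.0432) was lost without replicate 1 (adjusted p = 0.61). Of those that fell, Cyp2u1 gave -1.23 and -1.06 (-1.14 ± 0.09, adjusted p = 0.000338) and Cyp2j5, an epoxygenase of arachidonic acid, gave -1.01 and -1.03 (-1.02 ± 0.06, adjusted p = 0.000131). Cyp2f2, a naphthalene-oxidising P450, was lowest at -1.44 and -1.62 (adjusted p = 0.128 and 0.104 without replicate 1 or 2).

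Conjugation enzymes were split. Of 46, 12 rose and 11 fell, with a median of 0.06 (4 and 5 called higher, 7 and 7 lower, with replicate 1 or 2 left out). Sulphotransferases lay at both ends: Sult1a1, which acts on phenols, gave 1.85 and 1.93 (1.89 ± 0.14, adjusted p = 0.00028), and Sult2a8, which acts on bile acids, gave -2.26 and -1.86 (-2.06 ± 0.12, adjusted p = 0.00014). The glutathione transferases Gstm2 and Mgst2 rose by 1.70 ± 0.15 and 1.22 ± 0.08. The glucuronosyl transferases Ugt2b1, Ugt2b5 and Ugt2b38 fell to -1.05, -1.1 and -0.97, though these family members share sequence. Of 44 dehydrogenases, aldo-keto reductases and flavin monooxygenases, 11 rose and 7 fell, with a median of 0.04. The aldo-keto reductases of family 1B rose, Akr1b7 to 3.42 and 2.80, Akr1b10 to 1.34 and 1.31 and Akr1b3 to 1.1 and 1.08, while Aldh1a1, a retinal dehydrogenase, fell to -1.34 and -1.46 (-1.40 ± 0.10, adjusted p = 0.000219).

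Transporters of the hepatocyte membrane had no common direction, with 6 of 41 solute carriers higher and 7 lower and a median of 0.02. Over all genes 13.9% were higher and 4.95% lower, so the 6 rises lay near the share of all genes. Slco1a4, an organic anion transporter that untreated females express more, gave 1.66 and 1.34 (1.5 ± 0.09, adjusted p = 0.000123), opposite to its neighbour in family, Slco1a1. Slc13a3, a dicarboxylate transporter, gave 1.30 and 1.06 (1.18 ± 0.07, adjusted p = 0.000117), and Slc30a10, a manganese exporter, fell to -1.34 and -1.52 (-1.43 ± 0.09, adjusted p = 0.000141). Slc10a1, the bile salt uptake carrier, fell to -0.94 and -0.86 (adjusted p = 0.00212, but 0.0647 and 0.0701 without replicate 1 or 2). Of 39 ABC transporters, 11 rose and 5 fell, with a median of -0.01. Abcg1, a sterol exporter of macrophages, gave 1.69 and 1.67 (1.68 ± 0.10, adjusted p = 0.000119), and Abcg2, an apical efflux pump, fell to -1.14 and -0.86 (-1.0 ± 0.07, adjusted p = 0.000249). In bile acid synthesis and transport, 5 of 30 rose and 7 fell, with a median of -0.13, and Cyp7b1, the oxysterol hydroxylase of male liver, gave -1.27 and -0.61 (-0.94 ± 0.10, adjusted p = 0.00103).

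Lipid genes were split likewise, beside 13.9% of all genes higher and 4.95% lower. Of 38 genes of PPAR-alpha and fatty acid oxidation, 10 rose and 13 fell, with a median of -0.11 (7 and 4 called higher, 1 and 1 lower, with replicate 1 or 2 left out). Pdk4, which restrains pyruvate oxidation, gave 2.20 and 1.97 (2.09 ± 0.20, adjusted p = 0.000787). Cyp4a14, a fatty acid hydroxylase that untreated females express more, gave 1.80 and 2.57 (adjusted p = 0.00617, but 0.145 without replicate 2). Of 30 genes of fatty acid and triglyceride synthesis, 4 rose and 6 fell, with a median of -0.13 that turned to 0.03 without replicate 2. Elovl7, an elongase, gave 2.02 and 2.10 (2.06 ± 0.15, adjusted p = 0.000232), and Elovl3 gave -2.27 and -2.45 (-2.36 ± 0.09, adjusted p = 7.67e-05). Of 29 cholesterol genes 0 were called by limma (3 higher and 1 lower at an unadjusted p under 0.05). Lpl, the lipoprotein lipase that adult hepatocytes barely express, gave 1.49 and 1.42 (1.45 ± 0.13, adjusted p = 0.000597), and Apoa4 gave 1.20 and 1.12 (1.16 ± 0.10, adjusted p = 0.000501).

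In sugar metabolism, some isoforms typical of non-hepatocyte tissue rose, for Pkm and Pfkp on 1 probe, since others read -0.19 and 0.02. Of 36 genes, 9 rose and 6 fell, with a median of -0.12 (6 and 4 called higher, 0 and 1 lower, with replicate 1 or 2 left out). Pkm, the pyruvate kinase of most tissues, gave 1.38 and 1.12 (1.25 ± 0.11, adjusted p = 0.000458), Pfkp, a platelet-type phosphofructokinase, 0.98 and 0.93 (0.95 ± 0.08, adjusted p = 0.000423), and Pfkfb4 1.06 and 0.89 (0.98 ± 0.06, adjusted p = 0.000154). G6pc, which releases glucose, fell to -0.89 and -1.13 (adjusted p = 0.00442), a call lost with replicate 1 or 2 left out (adjusted p = 0.0694 and 0.131). The isoform grouping was made after the values were seen.

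Of 41 genes of the urea cycle and amino acid breakdown, 4 rose and 4 fell, with a median of 0.03. Over all genes 13.9% rose and 4.95% fell. Arg2, the mitochondrial arginase, gave 1.65 and 1.70 (1.67 ± 0.08, 3.19-fold, adjusted p = 9.2e-05), and Oat, ornithine aminotransferase, gave 1.07 and 1.08 (1.07 ± 0.08, adjusted p = 0.00025). Oxidative phosphorylation shifted slightly down, with 0 of 67 higher and 8 lower and a median of -0.17, and 0 were called by limma with either array left out. At an unadjusted p under 0.05, 25 were lower and 1 higher. Of 19 clock genes 3 fell, led by Rgs16, a regulator of G protein signals, at -1.76 and -1.89 (adjusted p = 0.00758, but 0.0728 and 0.195 without replicate 1 or 2). Among 48 transcription factors and nuclear receptors, 7 rose, near the share of all genes, and 5 fell, with a median of -0.07. Tox, which untreated females express more, gave 1.84 and 1.44 (1.64 ± 0.11, adjusted p = 0.000163).

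Secreted plasma proteins rose in 16 of 48 cases and fell in 6, with a median of 0.23 (6 and 4 called higher with replicate 1 or 2 left out). Lcn2, the siderophore-binding lipocalin, gave 2.40 and 2.09 (2.25 ± 0.08, adjusted p = 7.32e-05), and Serpina6, the corticosteroid-binding globulin, gave 2.22 and 1.74 (1.98 ± 0.14, adjusted p = 0.000219). Of 41 complement and coagulation genes, 9 rose and 7 fell, with a median of -0.04. Of the membrane attack complex, C8a fell to -1.27 and -1.08 (-1.18 ± 0.15, adjusted p = 0.00208) and C8b to -1.14 and -0.79 (-0.96 ± 0.10, adjusted p = 0.00124), calls lost without replicate 1 (adjusted p = 0.0734 and 0.0537). Both were higher in untreated males than in females, at 1.24 and 1.11. Of 20 genes of the hepatocyte marker list, 4 rose and 2 fell, with a median of 0.08, beside 13.9% and 4.95% of all genes. The calls of the rises mostly did not hold with 1 array left out. The list's median was then 0.15 without replicate 1 and -0.04 without replicate 2.

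For a few abundant plasma protein genes the 2 arrays disagreed. Alb, serum albumin, read 1.58 on replicate 1 and -0.16 on replicate 2, Ahsg, fetuin, 1.83 and 0.10, and C3, the central complement component, 1.35 and -0.03. In each the replicate with the Cux2 pool in red was higher. The same gap was seen in every comparison: replicate 1 exceeded replicate 2 for Alb by 1.71 in the untreated arrays, 1.74 here, 1.28 in day 5 females and 2.02 in day 3 males. The gaps of Ahsg were 1.77, 1.74, 1.68 and 1.80, and those of C3 1.6, 1.38, 1.28 and 1.62. With the dye term the fit gave Alb 0.71 ± 0.12, Ahsg 0.96 ± 0.06 and C3 0.66 ± 0.08, all called. Without that term they were not (adjusted p = 0.537, 0.39 and 0.5), so these 3 rises rest on it. Cyp1a1 showed no such common gap, with -3.53, 1.92, 0.03 and -1.17 in the same order.

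Markers of pancreas, fat and skeletal muscle were called in few cases, and those of red cells and platelets in more. Of 16 exocrine pancreas genes 0 were called by limma, also at an unadjusted p under 0.05, and the median was -0.01. Their standard errors, estimated from all 8 arrays, ran from 0.61 to 2.10, so the lack of calls says little about them. The median does not depend on those errors. Of 12 adipocyte genes 0 rose and 2 fell by limma's test (unadjusted also 0 and 2), and Adipoq, which defines the tissue, gave 0.03 and -0.30. Of 27 skeletal muscle genes 1 was called, Acta1, the skeletal actin, at 1.15 and 2.08 (adjusted p = 0.0323; 0.169 and 0.428 without replicate 1 or 2), and the list's median was 0.08 on replicate 1 and 0.88 on replicate 2. Muscle transcripts were thus present at a higher level in the Cux2 pool of replicate 2. Errors were wide for this list too: Myh1, at 0.78 and 1.87, had 0.44 and was not called (limma, adjusted p = 0.0922). Of 16 red cell genes, 6 rose and 3 fell, with a median of 0.25. Alas2, the erythroid enzyme of heme synthesis, fell to -1.20 and -1.74 (-1.47 ± 0.17, adjusted p = 0.00147), while Rhd, a blood group protein, rose by 0.82 ± 0.06. Of 13 platelet genes 8 rose, with a median of 0.46 (1 called with either array left out), among them Clec1b at 0.98 and 1.17 (1.07 ± 0.08, adjusted p = 0.000264).

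**Figure D4:**
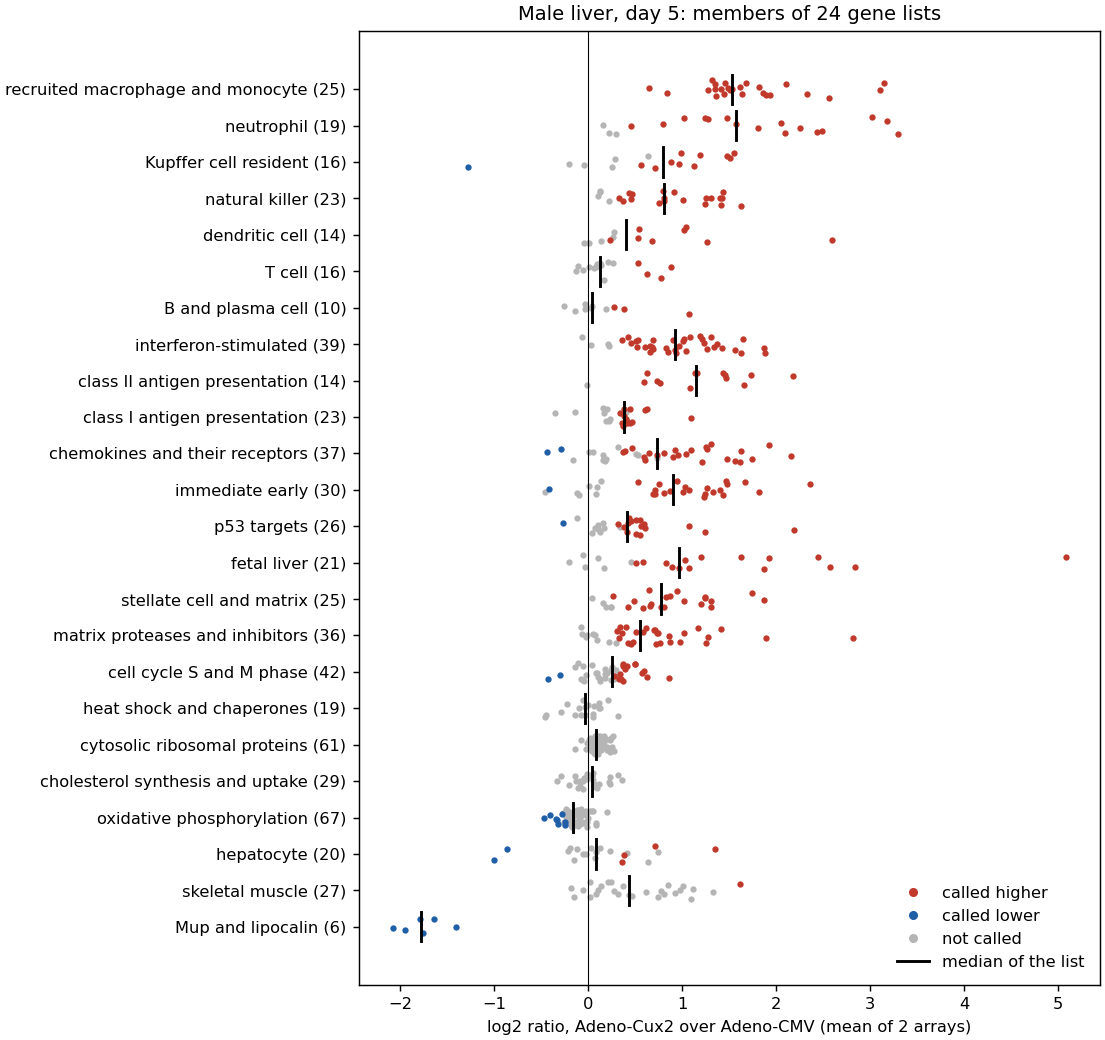
Members of 24 gene lists (number measured in brackets) by mean log2 ratio of Adeno-Cux2 over Adeno-CMV in males at day 5. Each point is a gene, red if called higher, blue if called lower and grey otherwise, and the black bar is the median of the list. Phagocyte lists lie at medians of 1.52 and 1.57, ribosomal and cholesterol genes at 0.09 and 0.03, and the Mup list at -1.78.

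In females treated for the same 5 days, too, more genes rose than fell: 2849 (12.8%) were higher and 1401 (6.31%) lower. The pools were of 8 treated and 7 control females, on the other slide. Tested as a difference, 38 genes (0.171%) were higher in the male than in the female response and 8 (0.036%) lower. With either male day 5 array left out these became 0 and 0 by limma's test (936 and 328 at an unadjusted p under 0.05 without replicate 1, 809 and 427 without replicate 2), with female replicate 1 left out 41 and 2, and with female replicate 2 left out 12 and 15. Sex and slide cannot be told apart in this contrast, since all male day 5 arrays were on one slide and all female arrays on the other.

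The genes that differed most were those of muscle. Myl1, a muscle myosin light chain, and Acta1 differed by 4.87 ± 0.59 and 4.59 ± 0.56. Myl1 read 0.84 and 1.39 in males and -3.37 and -4.15 in females. The muscle list had medians of 0.08 and 0.88 on the male arrays and -0.43 and -1.66 on the female arrays, so muscle content moved with this difference, and its part in other genes was not tested. Of genes outside muscle, Nipal1 was at 2.45 and 2.49 in males and 0.36 and 0.52 in females, a difference of 2.04 ± 0.12 (adjusted p = 0.00915). Egr2 differed by 1.64 ± 0.15 (adjusted p = 0.0307) and Lcn2 by 1.58 ± 0.11 (adjusted p = 0.0183). Orm3, an acute-phase glycoprotein, differed by 1.65 ± 0.16, with 0.37 and 0.52 in males and -1.08 and -1.33 in females. In the other direction, Kcnk1, a potassium channel, fell by 2.09 in males against 0.63 in females on the log2 scale (adjusted p = 0.0475), and Abcg2 differed by -0.97 ± 0.10 (adjusted p = 0.0396).

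The lists set side by side give the extent. Over all genes, 13.9% were called higher in males and 12.8% in females. By the test of the difference, 0.171% were higher in the male response. Class II genes rose in 13 of 14 cases in both sexes, with medians of 1.14 in males and 0.68 in females. Immediate early genes rose in 22 of 30 cases in males and in 4 in females, the latter near the share of all genes. Their medians were 0.90 and 0.17, though only 1 of them differed by the test. Macrophage medians were 1.52 and 1.14 and fetal liver medians 0.96 and 0.92. Textbook female-biased genes had medians of 0.74 in males and -0.21 in females, and 7 of the 47 were higher in the male response by the test. Male-biased genes fell in both, with medians of -0.91 and -0.39. The genes called lower in untreated males at 8-fold or more had a median of 2.02 in treated males and -0.66 in treated females. By selection these genes are higher in untreated females, and whether that bears on the 2 medians was not tested.

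Against males at day 3, the response at day 5 differed far more often. At day 3, 5275 genes (23.7%) were higher and 4508 (20.3%) lower, 44% in all, in pools of 11 and 11 mice. As a difference, 1800 genes (8.1%) were higher at day 5 than at day 3 and 1071 (4.82%) lower, so 62.7% of the called differences were upward. With median centring the counts were 772 and 1323, or 36.8% upward, so the split rests on the normalization. The day and the slide cannot be told apart. With 1 array left out the counts ranged from 31 to 716 higher and from 5 to 333 lower.

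Kupffer cell, red cell and hepatocyte genes were among those that differed. The list counts here and below come from the reported fit, so the limits just given hold for them too. Clec4f gave 1.14 and 0.84 at day 5 and -1.94 and -2.51 at day 3, a difference of 3.22 ± 0.18 (adjusted p = 0.00129). Kupffer cell genes had a median of 0.79 at day 5 and -0.42 at day 3, and 8 of 16 were higher at day 5 by the test. Hbb-bt, a beta globin, differed by 3.83 ± 0.18 and Hba-a1, an alpha globin, by 3.12 ± 0.16, and 12 of 16 red cell genes were higher. Igfbp2 gave 1.64 and 1.21 at day 5 and -1.95 and -1.97 at day 3 (adjusted p = 0.00125). Class II genes had medians of 1.14 and 0.21, with 9 of 14 higher and 2 lower at day 5. Recruited macrophage genes had like medians at both times, 1.52 and 1.51, and interferon genes too, with 0.93 and 0.96. Equal medians do not mean equal members. Adgre1 was at 1.49 at day 5 and -0.15 at day 3, a difference of 1.63 (limma, adjusted p = 0.00314). Itgam went the other way, at 1.36 and 2.04, a difference of -0.68 (adjusted p = 0.00839).

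Hepatocyte lists that were low at day 3 lay near 0 at day 5. By the test of the difference, 8.1% of all genes were higher and 4.82% lower at day 5, a split that rests on the normalization. P450 genes had medians of -0.18 at day 5 and -1.03 at day 3, and 23 of 38 were higher at day 5. Urea cycle and amino acid genes had 0.03 and -0.76, with 26 of 41 higher, and complement genes -0.04 and -0.74, with 26 of 41 higher. Cholesterol genes had 0.03 and -0.76, and the hepatocyte marker list 0.08 and -0.72. By contrast cytoskeleton genes were lower at day 5, with medians of 0.46 and 1.01 (10 of 35 lower by the test), as were p53 targets, with 0.41 and 0.74 (10 of 26), and S and M phase genes, with 0.25 and 0.51 (14 of 42). Cidec, a lipid droplet protein, differed by -2.66 ± 0.20 (adjusted p = 0.00219) and Vnn1 by -2.02 ± 0.28 (adjusted p = 0.0083). Vnn1 was low at day 5, at -2.05 and -1.88, but near 0 at day 3 in the mean (0.05).

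Slc22a26 and AI315523, of the most female-specific genes, differed between the 2 times. Slc22a26 gave 2.90 and 2.74 at day 5 but 1.17 and -2.26 at day 3, where its 2 arrays went opposite ways (adjusted p = 0.0457). AI315523 gave 5.06 and 4.74 at day 5 and 1.73 and -2.65 at day 3 (adjusted p = 0.0337), again with day 3 arrays of opposite sign. Sult2a2 missed the test of the difference (adjusted p = 0.0545). The 18 genes called lower in untreated males at 8-fold or more had medians of 2.02 at day 5 and -0.50 at day 3, with 10 and 3 called higher. The 160 male-biased genes were lower at both times, with 125 falls at day 5 and 136 at day 3 and medians of -0.72 and -1.11.

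**Figure D5:**
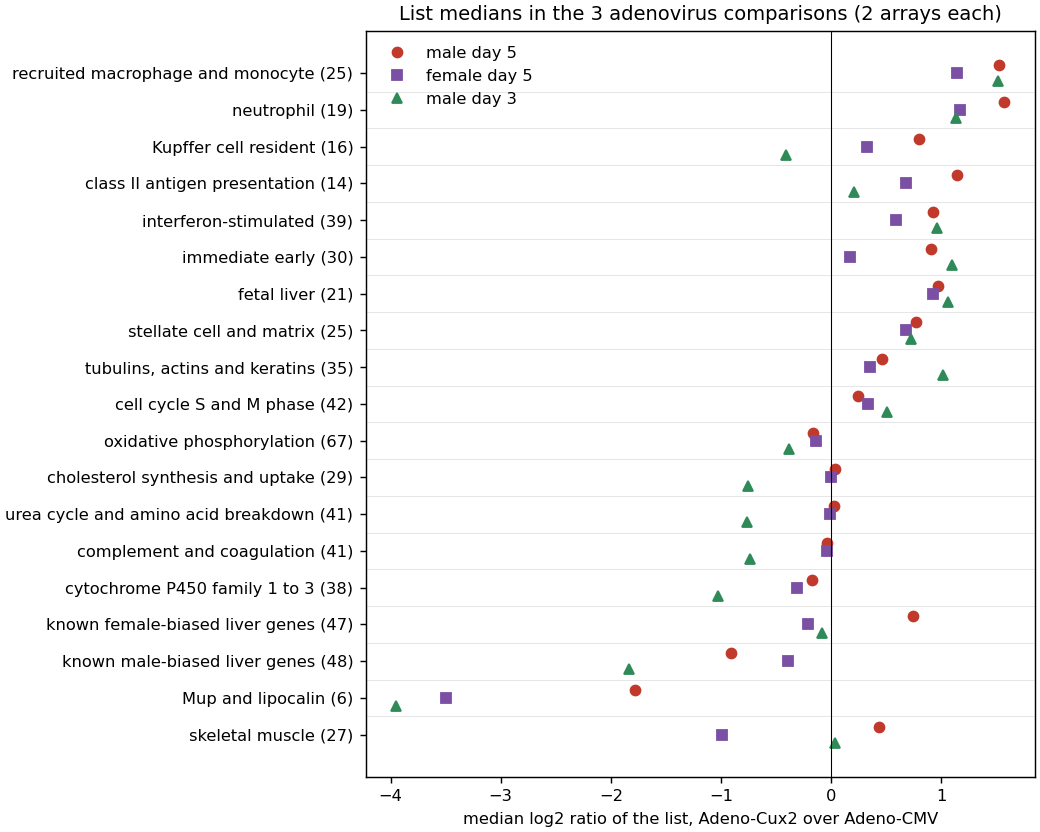
Median log2 ratio of gene lists (number measured in brackets) in males at day 5 (red circles), females at day 5 (purple squares) and males at day 3 (green triangles), each from 2 arrays. The Kupffer cell, P450, urea cycle and complement lists lie lower at day 3 than at day 5, while macrophage and interferon lists lie close together. The muscle list, at 0.43 in males and -0.99 in females, parts the sexes.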

How the data were processed

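Liver RNA pools were compared on 8 two-colour Agilent 4x44k mouse arrays. The deposited intensity values are median pixel brightness per spot and local background, without normalization, from Agilent Feature Extraction 9.5.3.1 (untreated and male day 5 slide) and 10.7.1.1 (the other slide), per the file headers. Per the file headers, the deposited LogRatio is a log10 ratio, red over green, that the software computed once it had subtracted background and normalized the dyes. The authors' deposited series table repeats these log10 ratios (largest difference 4.93e-06) after a change of sign for replicate 2. Its column medians were -0.00336 and -0.00615 for male day 5 and 0 for the other arrays. The deposited spot flags (above background, saturated, outlier) are 0 or 1, per the file headers. Array coordinates are on mm8.

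Background was removed by normexp (offset 50) and log2 ratios were normalized by loess within each array, in limma 3.58.1 with R 4.3.3, with control and outlier spots at weight 0. Of 43379 gene spots giving 41174 probes, 33330 probes were kept, namely those well above background in 1 or both channels of each array of some comparison. Names came from a RefSeq table on GRCm38.p6 (24375 probes by accession, 6301 by symbol, 2426 by synonym, 8072 left as in the files). The brightest probe stood for each of 22220 genes. Where a called gene had several probes, they shared 1 direction in 84.4% of cases. A probe with repeated spots was flagged by the share of its spots (at least 0.5, outliers left out). This was chosen among 3 rules because its counts equalled those of an earlier processing, and the others left 33333 and 33335 probes.

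One model over the 8 arrays had a coefficient per comparison and a dye term, with 3 residual and 3.63 prior degrees of freedom, 2-sided moderated tests and Benjamini-Hochberg adjustment over all genes. The replicate number marks the dye orientation, so that the dye term is also the replicate block. The median standard error was 0.0784 (0.111 for a difference between comparisons). Simulated data of the male day 5 comparison over 22220 genes held 100 changed genes per size. The fit recovered 89% of changes of log2 1 and 97% of log2 2, and called 8 unchanged genes. Far more genes, 4188, were called in the data, so the simulation does not give the share of false calls there.

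Members and lists, written from textbook knowledge, were chosen with earlier results of these data known. Named are Cux2, the 15 largest rises and falls, up to 4 genes per list and direction, defining markers, the 10 largest differences per contrast and direction, the 10 largest changes among sex-biased genes and the 6 widest gaps. Others are said to be chosen after their values were seen. Promoters were searched for 2 elements, and 2 further ones tried after the values were seen are not reported. A few genes that the rule names are not reported here. No array was left out of the reported fit.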

Additional observations from a re-analysis of the deposited data

Results flagged for a closer look

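Differences between the male day 5 response and the 2 other adenovirus responses were singled out where the test of the difference itself passed. Against females at day 5, 38 genes were higher and 8 lower, and against males at day 3, 1800 were higher and 1071 lower. Both contrasts cross the slides, so slide and group cannot be told apart.

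Against females, muscle genes differed most, Myl1 by 4.87, Acta1 by 4.59 and Apobec2, a muscle deaminase, by 2.97. The muscle list had medians of 0.08 and 0.88 on the male arrays and -0.43 and -1.66 on the female ones, and its part in the other differences was not tested. Rsph4a, a cilium protein, differed by 2.72, Nipal1 by 2.04, Orm3 and the retinol dehydrogenase Rdh16f2 by 1.65 each, Egr2 by 1.64, Lcn2 by 1.58 and Rnf170, a ubiquitin ligase, by 1.57. Lower in the male response were Keg1 at -0.86, Adgrf1 at -0.94, Abcg2 at -0.97, Adh6-ps1 at -1.18, Ces4a, a carboxylesterase, at -1.19, Meig1 at -1.35 and Kcnk1 at -1.46. With either male day 5 array left out 0 differences were called by limma.

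Against day 3, the globins Hbb-bt, Hba-a1 and Hba-a2 were higher by 3.83, 3.12 and 2.94, and 12 of 16 red cell genes were higher by the test. Clec4f was higher by 3.22, Igfbp2 by 3.39, Slc22a26 by 3.36 and Dct, dopachrome tautomerase, by 3.44. Dct itself was not changed beyond error at day 5, at -0.42 and 0.43 (0.01 ± 0.13, adjusted p = 0.984), and stood at -3.43 at day 3. Lower at day 5 were Cidec by -2.66, Vnn1 by -2.02, Fbp2, a muscle-type fructose bisphosphatase, by -2.01, Csn3, a casein, by -1.98, Lmo1 by -1.93 and Angpt2, an angiopoietin, by -1.83.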

How the results depend on the processing

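Results were recomputed under 15 alternatives for the male day 5 comparison, 2 of them (other rules for repeated spots) chosen after seeing the data, which both gave 3088 and 1100 calls. All 4188 called genes kept their direction under each alternative except the mean over probes (4179 did) and the strict filter (4075 of 4077 tested). With the software's log ratios the rises numbered 1991, lower list members 97 (148 as reported), male-biased genes that rose 1 (reported 4), differences from females 0 and 0 by limma (1225 and 921 at an unadjusted p under 0.05), and differences from day 3 447 and 202. With no background subtraction male-biased rises numbered 2 and differences from females 1 and 0 (1568 and 835 unadjusted), and Cux2 was at 0.17. Median centring gave Cux2 0.56 and 772 genes higher than at day 3. The fit with no replicate block (no dye term) left 19 and 2 differences from females, 20 of 310 named genes lost their call under it, and male day 5 calls were 2821 and 926. The dye term blocks on the replicate number, because that number marks the dye orientation. Same-numbered arrays are not labelled as sharing mice, and their deviations correlated at -0.0945 to 0.296. The 2 male day 5 arrays alone gave 2050 falls, 233 lower list members, 7 male-biased rises and 22 female-biased falls (reported 9), and the first slide alone 7 and 16. Only the 4 arrays of a contrast gave 125 and 43 differences from females, and 2929 and 2027 from day 3. With 1 array left out the ranges were 875 to 1020 rises, 145 to 170 falls, 38 to 67 male-biased falls, 1 to 2 male-biased rises, 43 to 47 female-biased rises, 2 to 5 female-biased falls, 210 to 251 list members higher and 32 to 42 lower. They were 0 to 41 and 0 to 15 differences from females, 31 to 716 and 5 to 333 from day 3, and 0.58 to 0.62 for Cux2. The median of the fatty acid synthesis list (reported -0.13) was -0.27 without replicate 1 and reversed to 0.032 without replicate 2. The cause of these shifts was not tested. Of 310 named genes, 138 lost their call without replicate 1, 138 without replicate 2, 58 with the software's ratios, 38 with no background subtraction and 16 with median centring, and 0 reversed. The 2 pools per side, amplified RNA and probes near background limit the precision: 65 called genes were not above background on 1 side, and no change under 0.21 in log2 was called.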

Other observations

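Apolipoproteins and lipoprotein enzymes had no common direction in males at day 5: of 24, 4 rose and 3 fell, with a median of 0.08. Over all genes 13.9% rose and 4.95% fell. Beside Lpl and Apoa4, Apoc2, the cofactor of lipoprotein lipase, gave 0.87 and 0.50 (0.69 ± 0.07, adjusted p = 0.00113 in limma). Lipc, the hepatic lipase, fell to -0.65 and -0.74 (-0.69 ± 0.09, adjusted p = 0.00303), a call lost with replicate 1 or 2 left out (adjusted p = 0.0999 and 0.0671). So the 2 lipases went opposite ways.

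Among p53 targets below Pmaip1, Ddit4l gave 1.22 and 1.26, Btg2, an antiproliferative gene, 1.06 and 1.07, and Mdm2, the ubiquitin ligase of p53, 0.63 and 0.58. All 3 were called, and all 3 calls were lost with replicate 1 or 2 left out (adjusted p from 0.0506 to 0.138). In the thyroid hormone receptor pair, Thra was at -0.47 and -0.31 and Thrb at -0.55 and -0.63, and Nr0b2, the repressor of bile acid synthesis, at -0.36 and -0.70, each lower on both arrays. Their calls were also lost with replicate 1 or 2 left out (adjusted p from 0.0772 to 0.235).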
